A study of Mus musculus with 6 samples.

Results

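Basophils and mast cells are blood and tissue granulocytes with a set of characteristic genes in common, and 10 of these genes were followed by name in cultures of mouse eosinophils: Gata2, Kit, Fcer1a, Ms4a2, Hdc, Cpa3, Tpsb2, Cma1, Mcpt8 and Prss34. They were chosen by symbol as known markers of these cells, with earlier results of these data known. The count table held 9 of the 10 among its 16254 genes (Cma1, mast cell chymase, was not analysed here). A filter on low counts kept 8 of the 9 among 13498 genes tested, and left out Tpsb2. Bone marrow of young adult C57BL/6 mice had been grown with FLT3 ligand and stem cell factor and then with IL-5, which gives bone marrow-derived eosinophils. These cells were then kept for 24 h with extracellular vesicles (EVs) from activated TH2 cells, or with sham control, unconditioned medium taken through the same EV isolation. Polyadenylated RNA of 3 sham-treated and 3 EV-treated cultures was sequenced in bulk. Both groups share strain and culture and by the sample titles differ in treatment. No T cells had conditioned the sham medium, so the comparison asks what the TH2 cell EV preparation changes in these cultures.

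Basophils and mast cells arise from progenitors that they have in part in common with eosinophils, and both are armed by IgE. The high-affinity IgE receptor, FcεRI, is built from an IgE-binding α chain (Fcer1a), a signal-amplifying β chain (Ms4a2) and a γ chain (Fcer1g) that many leukocytes use. When allergen crosslinks it, the cell releases histamine, made by histidine decarboxylase (Hdc), and granule proteases. Cpa3, Tpsb2 and Cma1 encode the carboxypeptidase, tryptase and chymase for which mast cells are known, and Mcpt8 and Prss34 encode serine proteases used in mice to mark basophils. KIT, the receptor of stem cell factor, is kept by mast cells and largely lost by basophils. GATA2 is a zinc finger transcription factor needed for both lineages, and it binds short DNA words with GATA at their core.

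The promoters of the 5 genes with the largest fitted change are shown so that the words that GATA factors read can be seen in them. Of these genes, 4 were called higher, and Fcer1a just missed the threshold. Each is the RefSeq sequence of GRCm38.p6 from 250 bases before to 50 bases after the annotated start, 5′ to 3′ on the strand of the gene. Capitals mark the word GATA with A or T before it and A or G after it, on either strand, so that on the opposite strand its core reads TATC.
Ms4a2: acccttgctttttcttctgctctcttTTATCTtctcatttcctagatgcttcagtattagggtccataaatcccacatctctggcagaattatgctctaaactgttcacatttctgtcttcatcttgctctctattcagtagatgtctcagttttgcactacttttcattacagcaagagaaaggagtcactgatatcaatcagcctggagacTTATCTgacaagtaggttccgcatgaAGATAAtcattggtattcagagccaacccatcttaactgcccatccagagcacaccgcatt
Mcpt8: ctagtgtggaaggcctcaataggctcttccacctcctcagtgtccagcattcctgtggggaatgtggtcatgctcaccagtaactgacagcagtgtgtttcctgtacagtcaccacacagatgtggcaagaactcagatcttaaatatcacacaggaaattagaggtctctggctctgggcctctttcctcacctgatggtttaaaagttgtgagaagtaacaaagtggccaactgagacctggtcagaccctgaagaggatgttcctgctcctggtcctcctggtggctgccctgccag
Prss34: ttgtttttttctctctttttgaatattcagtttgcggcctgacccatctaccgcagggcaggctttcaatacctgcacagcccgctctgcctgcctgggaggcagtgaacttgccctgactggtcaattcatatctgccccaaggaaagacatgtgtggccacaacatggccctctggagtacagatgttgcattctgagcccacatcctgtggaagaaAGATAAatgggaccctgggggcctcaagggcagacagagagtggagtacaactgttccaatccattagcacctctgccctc
Fcer1a: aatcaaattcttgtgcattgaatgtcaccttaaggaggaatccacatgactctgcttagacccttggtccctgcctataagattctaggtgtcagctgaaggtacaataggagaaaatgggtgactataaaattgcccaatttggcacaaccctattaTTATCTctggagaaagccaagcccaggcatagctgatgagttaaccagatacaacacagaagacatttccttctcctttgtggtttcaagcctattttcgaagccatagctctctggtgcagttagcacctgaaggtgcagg
Cpa3: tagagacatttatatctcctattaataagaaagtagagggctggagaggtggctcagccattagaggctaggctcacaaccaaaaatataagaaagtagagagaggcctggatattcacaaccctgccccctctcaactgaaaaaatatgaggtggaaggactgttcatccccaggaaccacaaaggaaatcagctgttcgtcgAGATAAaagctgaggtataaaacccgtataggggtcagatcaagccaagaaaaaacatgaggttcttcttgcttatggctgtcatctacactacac

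These windows lie at chr19:11623670-11623969 (minus strand) for Ms4a2, chr14:56085148-56085447 (minus) for Mcpt8, chr17:25298144-25298443 (plus) for Prss34, chr1:173227180-173227479 (minus) for Fcer1a and chr3:20242132-20242431 (minus) for Cpa3. The Ms4a2 promoter held 3 such words, beginning at -224, -37 and -11 from the start. Prss34 held 1 at -31, Cpa3 1 at -46 and Fcer1a 1 at -92, and Mcpt8 held none. Promoters were matched for 9 of the 10 genes, and 6 of the 9 held at least 1 word, with Hdc at -221 and Cma1 at -79 as the remaining members. Neither of the 2 annotated starts of Gata2 nor either of the 2 of Kit did. Among all 32851 RefSeq promoters of this length, 29.8% held at least 1 such word. The STAT word TTCNNNGAA was in none of the matched promoters and in 8.30% of all promoters. These are matches of letters in a short window, and binding was not measured here.

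Of the 8 genes tested, 6 were higher with EVs and none was lower. Gata2, Ms4a2, Cpa3, Mcpt8, Prss34 and Hdc passed edgeR's quasi-likelihood test at a Benjamini-Hochberg adjusted p under 0.01 over all 13498 genes, the threshold used throughout. The median log2 fold change of the 8 genes was 1.43, against -0.01 over all genes tested. Of all genes tested, 1632 were higher (12.1%) and 1572 were lower (11.6%). With library totals as the only scaling, the median of all genes moved to -0.16 and the split to 1036 higher and 2342 lower, and the same 6 genes were called higher. In 7 of the 8 genes each EV-treated culture lay above each sham-treated one, as was the case for 24.8% of all genes, and in none did each lie below, as in 24.7% of all genes. The genes called lower were 0 at an unadjusted p under 0.05, and 0 with DESeq2 and with limma. In bulk RNA, more cells of a type and more RNA per cell cannot be told apart, and this holds for every level below.

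**Figure D1:**
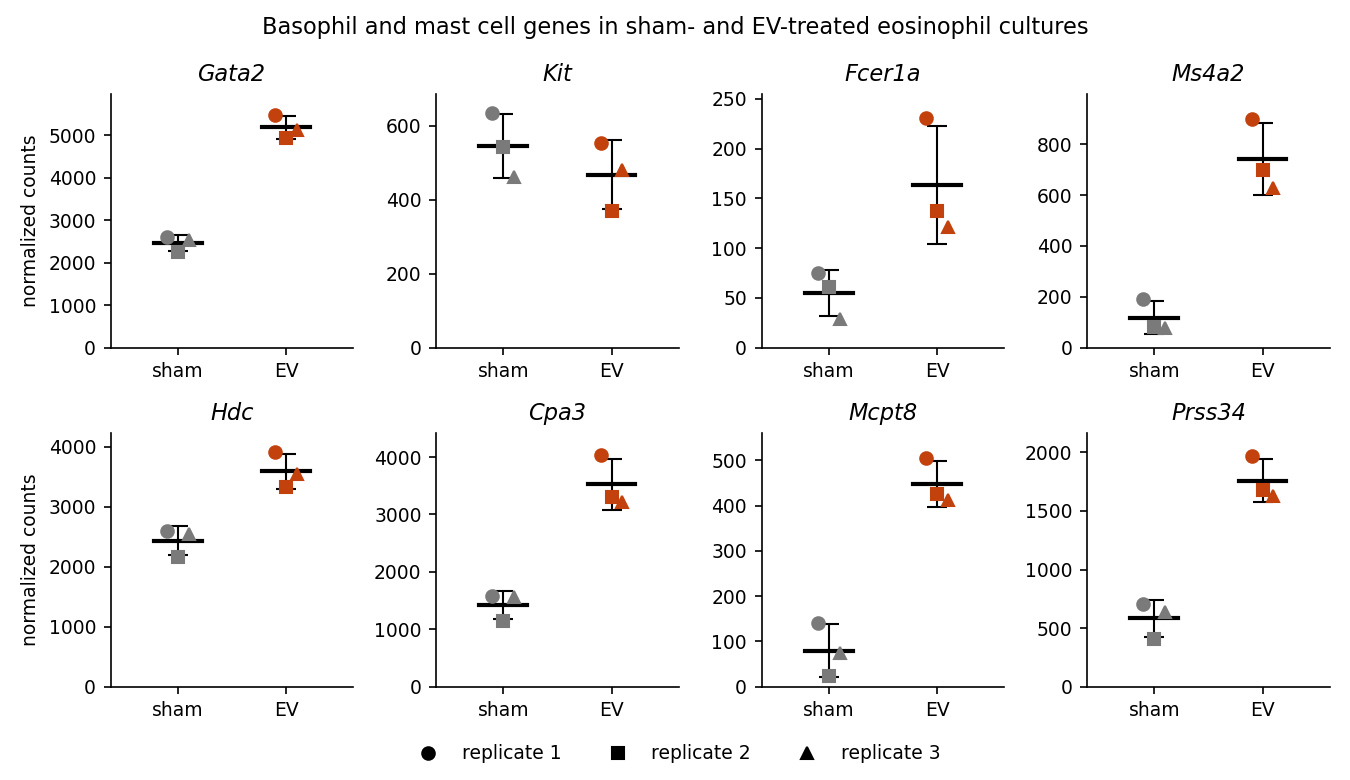
Normalized counts of the 8 tested genes (vertical axes, linear and starting at 0, one scale per gene) in the 3 sham-treated (grey) and 3 EV-treated (orange) cultures, with the replicate number as the marker shape; lines are means and bars are SD. The EV-treated cultures lie above all sham-treated ones for 7 genes, and for Kit the groups overlap.

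The transcription factor gene came first in the precision of its change. Gata2 (chr6:88193891-88207032, plus strand, GRCm38) had normalized counts, that is counts scaled to a common library size, of 2611, 2244 and 2536 in sham replicates 1 to 3. In EV replicates 1 to 3 it had 5485, 4948 and 5129. The groups were far apart beside the spread within either. Gata2 rose 2.10-fold, from 2464 ± 194 to 5187 ± 273 (SD, n = 3), with a log2 fold change of 1.07 (SE 0.0757, 95% interval 0.90 to 1.24) and an edgeR adjusted p of 3.6e-06. Its relation to other factors of the lineage moved too. The ratio of Gata2 to Gata1, another GATA factor of the basophil, mast cell and eosinophil lineages, went from 0.955 ± 0.0641 to 1.30 ± 0.144 (SD, n = 3). The ratio of Gata2 to Cebpa, a myeloid factor whose own transcript fell, went from 0.650 ± 0.190 to 6.47 ± 0.753 (SD, n = 3). In both ratios the groups did not overlap. An exact two-sided permutation test of 3 against 3 cultures cannot give a p under 0.1, so no p is given for single ratios.

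Kit, the stem cell factor receptor (chr5:75574916-75656722, plus strand), did not follow. Its normalized counts were 635, 542 and 462 in the sham-treated cultures and 554, 369 and 480 in the EV-treated ones. The groups overlapped, and 2 of the EV-treated cultures lay within the sham range. The means were 546 ± 86.8 and 468 ± 93.1 (SD, n = 3). The log2 fold change was -0.23 (SE 0.174), with a 95% interval from -0.61 to 0.16 and an edgeR adjusted p of 0.355. The interval leaves room for a modest fall and for a small gain, and its upper end lies below the lower end for each of the other 7 genes.

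Of the IgE receptor chains, the β chain rose, the α chain missed the threshold and the γ chain was high in both groups. Ms4a2, the β chain gene (chr19:11615523-11623719, minus strand), had 192, 82.1 and 77.8 normalized counts with sham and 900.1, 697 and 628 with EVs. Sham replicate 1 stood above the other sham-treated cultures, and all 3 EV-treated cultures stood above it. Ms4a2 rose 6.21-fold, with a log2 fold change of 2.64 (SE 0.318, 95% interval 1.92 to 3.35) and an edgeR adjusted p of 0.000124, the largest fitted change of the 8 genes and rank 127 among all genes tested. Of its 31-base words, 3.96% occur in another gene, mainly Ms4a4b, a neighbouring family member. Fcer1a, the α chain gene (chr1:173221284-173227214, minus strand), had 74.8, 61.3 and 29.2 normalized counts with sham and 231, 137 and 121 with EVs. The groups did not overlap, but EV replicate 1 stood well above the other EV-treated cultures. Its log2 fold change was 1.55 (SE 0.387, 95% interval 0.69 to 2.42), and the edgeR adjusted p of 0.0106 missed the threshold. It passed with DESeq2 (adjusted p of 0.000921), with limma (0.00846) and without sham replicate 1 (0.00776), and over the edgeR fits that left out 1 culture the adjusted p ran from 0.00776 to 0.0599. Its values rested on 24 to 83 counts per sham-treated culture, few beside most of the 8 genes.

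The γ chain gene Fcer1g, which eosinophils and other myeloid cells transcribe, was high in both groups, at 6912 ± 416 with sham and 7241 ± 443 with EVs (SD, n = 3). Its log2 fold change was 0.07, with a 95% interval from -0.09 to 0.22 and an edgeR adjusted p of 0.493. The ratio of β to α chain counts within a culture went from 2.19 ± 0.739 to 4.73 ± 0.717 (SD, n = 3), without overlap between the groups. Sham replicate 2 had the lowest ratio, 1.34.

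Hdc, which encodes the enzyme that makes histamine (chr2:126593667-126619299, minus strand), was already well expressed with sham. It had 2598, 2161 and 2549 normalized counts with sham and 3910, 3333 and 3539 with EVs. The groups did not overlap, and the fold change between them was the smallest among the genes that rose. Hdc rose 1.47-fold, with a log2 fold change of 0.56 (SE 0.0891, 95% interval 0.36 to 0.76) and an edgeR adjusted p of 0.000782. It was the 1 called gene under a 2-fold change, so that 5 of the 8 genes were called at a log2 fold change of at least 1, a limit that 3.1% of all genes passed upward and 6.35% downward.

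The granule proteases of mast cells split between a high transcript and one barely seen. Cpa3, carboxypeptidase A3 (chr3:20215620-20242181, minus strand), had 1579, 1148 and 1554 normalized counts with sham and 4033, 3313 and 3220 with EVs. All 3 EV-treated cultures lay far above the highest sham-treated one. Cpa3 rose 2.46-fold, with a log2 fold change of 1.30 (SE 0.129, 95% interval 1.01 to 1.59) and an edgeR adjusted p of 3.3e-05. Tpsb2, the tryptase gene (chr17:25366305-25369098, plus strand), had 0 counts in every sham-treated culture and 3, 2 and 2 counts with EVs. Both groups lay at or under a floor of 3 counts per library, so no fold is given and a difference was not detectable at this depth. The ratio of Cpa3 to Kit went from 2.66 ± 0.640 to 7.65 ± 1.18 (SD, n = 3), and that of Cpa3 to Hdc from 0.583 ± 0.0446 to 0.978 ± 0.0622 (SD, n = 3). Neither ratio overlapped between the groups.

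The basophil proteases both rose. Mcpt8, mast cell protease 8 by name and a basophil granule protease (chr14:56082166-56085273, minus strand), had 141, 23.3 and 74.1 normalized counts with sham and 506, 425 and 413 with EVs. The sham-treated cultures differed 6.08-fold among themselves, and the EV-treated ones 1.23-fold. Mcpt8 rose 5.50-fold, with a log2 fold change of 2.46 (SE 0.446, 95% interval 1.46 to 3.46) and an edgeR adjusted p of 0.0018. This value leans on single sham-treated cultures: the log2 fold change was 3.20 without sham replicate 1 and 2.03 without sham replicate 2, and without sham replicate 3 it was 2.40 with an edgeR adjusted p of 0.013, past the threshold no longer. Prss34, a mast cell and basophil tryptase-like protease known as mMCP-11 (chr17:25298394-25300165, plus strand), had 710, 409 and 634 normalized counts with sham and 1969, 1679 and 1627 with EVs. All 3 EV-treated cultures lay at more than double the highest sham-treated culture. Prss34 rose 3.00-fold, with a log2 fold change of 1.58 (SE 0.174, 95% interval 1.19 to 1.97) and an edgeR adjusted p of 6.7e-05. With EVs the ratio of Mcpt8 to Prss34 was nearly the same in the 3 cultures, 0.255 ± 0.00193 (SD, n = 3). With sham it was 0.124 ± 0.0715 (SD, n = 3), and sham replicate 2 was lowest at 0.0569.

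**Figure D2:**
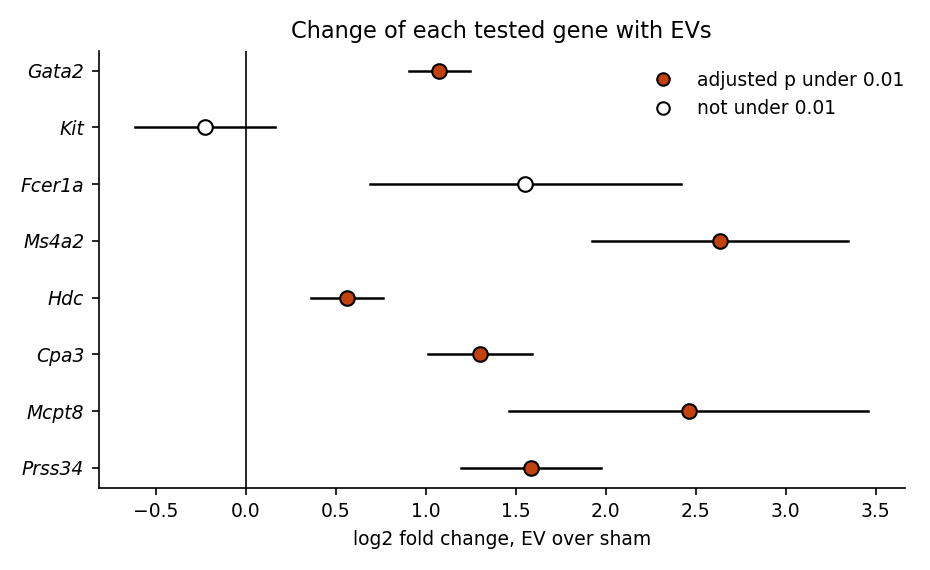
Fitted log2 fold change (horizontal axis, EV over sham) of the 8 tested genes with 95% intervals; filled points have an edgeR adjusted p under 0.01. Ms4a2 at 2.64 and Mcpt8 at 2.46 lie farthest right with wide intervals, Fcer1a at 1.55 is open, and the interval of Kit spans 0.

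By fitted change the genes ran in the order Ms4a2, Mcpt8, Prss34, Fcer1a, Cpa3, Gata2, Hdc and Kit. Among 13498 genes ranked by log2 fold change from the highest, Mcpt8 was at 144, Prss34 at 306, Fcer1a at 323, Cpa3 at 446, Gata2 at 654, Hdc at 1590 and Kit at 9100. The 95% intervals of neighbours in this order overlapped, except between Gata2 and Hdc and between Hdc and Kit. Per kilobase of exon, sham-treated cultures had a mean level of 941 normalized counts for Cpa3, 479 for Prss34, 456 for Gata2 and 381 for Hdc. The other tested genes lay at 79.8 for Mcpt8, 61.3 for Kit, 55.2 for Fcer1a and 41.7 for Ms4a2, and among these last 4 genes the cultures overlapped between all neighbours. Prss34 and Gata2 overlapped as well.

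With EVs the order per kilobase changed at its lower end. Cpa3 was at 2322 normalized counts per kilobase, Prss34 at 1441, Gata2 at 961, Hdc at 563 and Mcpt8 at 449. Ms4a2 was at 264 and Fcer1a at 163, and these neighbours overlapped between cultures. Kit was last among the tested genes at 52.5, and Tpsb2 had 1.35. Exon lengths came from GENCODE vM21, which may differ from the annotation used for the counts. No exon base of any of these genes is shared with another gene in that annotation, and none of Gata2, Kit, Fcer1a, Cpa3, Mcpt8 and Prss34 shares a 31-base word with another gene.

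Genes that work with the 10, in 6 lists, were followed in the same fit. The lists were drawn up with earlier results of these data known, so their shares are a description and no independent support. Of 89 tested genes in them, each counted once, 40 were higher (44.9%, against 12.1% of all genes) and 11 were lower (12.4%, against 11.6%), and with library totals only 34 were higher and 15 lower. Of 21 genes for IgE receptor signaling and secretion, 6 were higher, 3 were lower and 12 did not pass, with a median log2 fold change of 0.07. With library totals only the balance turned, to 4 higher and 7 lower. The adaptor gene Lcp2, which encodes SLP-76, rose from 5478 ± 197 to 13099 ± 217 normalized counts (SD, n = 3), with a log2 fold change of 1.26 and an edgeR adjusted p of 1.62e-07. Grap2, which encodes the adaptor GADS that joins SLP-76 to LAT, fell from 94.6 ± 37.5 to 13.1 ± 4.21 normalized counts (SD, n = 3). Its log2 fold change was -2.84 with an edgeR adjusted p of 0.00113. Grap2 had 9, 15 and 20 counts with EVs, and passed the filter on low counts only through the sham-treated cultures. Fyn, a Src family kinase gene, had a log2 fold change of -1.07 and an edgeR adjusted p of 0.00325, which was 0.0139 without EV replicate 1 and 0.0221 without EV replicate 3.

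Among 23 other mast cell genes, 11 could be tested, 7 of them were higher and 1 was lower, and the median log2 fold change was 1.16. Il1rl1, the receptor of IL-33, had means of 3071 with sham and 13389 with EVs. Srgn, the proteoglycan core on which granule proteases are stored, had 10534 and 32904, and Maob, a monoamine oxidase gene, 17.2 and 107. Gzmb, a granule serine protease gene, had no count with sham and a mean of 24.9 ± 5.96 normalized counts with EVs (SD, n = 3). It was thus at least 7.44-fold higher, against a floor of 3 counts per library. Gzmb passed the filter on low counts only through the EV-treated cultures. Its edgeR adjusted p was 0.00226 and lay between 0.0106 and 0.0181 in the fits that left out 1 EV-treated culture. Hpgds, the hematopoietic prostaglandin D2 synthase gene, went the other way. It fell from 739 ± 170 to 38.5 ± 12.7 normalized counts (SD, n = 3), with a log2 fold change of -4.24 and an edgeR adjusted p of 2e-06. Tpsab1, the other tryptase gene, was not analysed here, nor were Mcpt1, Mcpt2, Mcpt4, Mcpt9, Cma2, Tpsg1, Mrgprb1 and Mrgprb2. The 11 genes tested leave these out, and the list does not separate the cell types.

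Of 17 other basophil genes, 16 were tested, 12 were higher and none was lower, with a median log2 fold change of 1.12. None was lower at an unadjusted p under 0.05 or with DESeq2 or limma. Cd69, an early activation marker, rose from 556 ± 43.8 to 6085 ± 384 normalized counts (SD, n = 3), with a log2 fold change of 3.45 and an edgeR adjusted p of 6.6e-09. Grm6, a glutamate receptor gene, rose from 19.6 ± 13.8 to 332 ± 27.4 (SD, n = 3), with a log2 fold change of 4.04 and an edgeR adjusted p of 7.01e-05. It had 30, 23 and 3 counts with sham, and passed the filter on low counts only through the EV-treated cultures. Il13 had 4, 0 and 0 counts with sham and a mean of 33.9 ± 4.12 normalized counts with EVs (SD, n = 3). It too passed the filter on low counts only through the EV-treated cultures. Its edgeR adjusted p of 0.00559 rose past the threshold in 5 of 6 fits that left out 1 culture, to 0.0367 at most. The cytokine genes Il4, with means of 437 and 837, and Il6, with 74.3 and 629, were also higher. Many of these genes are transcribed by activated eosinophils too, and the list does not separate the cell types.

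Of 23 transcription factor genes of the basophil, mast cell and eosinophil lineages, 7 were higher, 5 were lower and 11 did not pass. The 5 became 3 without sham replicate 2, without EV replicate 2 and without EV replicate 3. Bhlhe40, a helix-loop-helix factor gene, rose from 7503 ± 606 to 35364 ± 1546 normalized counts (SD, n = 3), with a log2 fold change of 2.24 and an edgeR adjusted p of 2.74e-08. Gata1 rose with a log2 fold change of 0.64 and an edgeR adjusted p of 3.85e-05. The factors that fell included a mast cell regulator. Mitf, which drives mast cell genes, fell from 768 ± 69.5 to 324 ± 39.3 (SD, n = 3), with a log2 fold change of -1.24 and an edgeR adjusted p of 5.18e-05. Cebpa, a granulocyte and monocyte factor gene, fell from 3952 ± 822 to 806 ± 50.0 (SD, n = 3), with a log2 fold change of -2.29 and an edgeR adjusted p of 1.49e-06. Irf8, a monocyte and dendritic cell factor gene, had a log2 fold change of -3.15 and an edgeR adjusted p of 5.01e-05. This list does not separate the cell types either, and which cells carried these falls was not tested.

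Histamine handling was a short list, in which 6 of 8 genes were tested, 2 were higher and none was lower. Slc18a2, the transporter that loads histamine into granules, rose from 1624 ± 138 to 3160 ± 260 normalized counts (SD, n = 3), with a log2 fold change of 0.96 and an edgeR adjusted p of 1.73e-05. The ratio of Hdc to Slc18a2 was 1.50 ± 0.0963 with sham and 1.14 ± 0.0955 with EVs (SD, n = 3), without overlap. Slc22a3, a plasma membrane carrier of histamine, rose with a log2 fold change of 1.55 and an edgeR adjusted p of 0.000252. Hnmt, which encodes the enzyme that methylates histamine, had a log2 fold change of -2.54 and an edgeR adjusted p of 0.0228. It had 4, 13 and 8 counts with EVs, and passed the filter on low counts only through the sham-treated cultures. Without sham replicate 2 its log2 fold change was -1.85. With DESeq2 its adjusted p was 0.00449, so that 1 gene of this list was lower there, as was 1 at an unadjusted p under 0.05 and 0 with limma. The receptor gene Hrh4 had a log2 fold change of 1.16 and an edgeR adjusted p of 0.0822, and without sham replicate 1 these were 1.94 and 0.00286.

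Of 16 genes for KIT and IL-3 signaling, 15 were tested, 8 were higher and 2 were lower, with a median log2 fold change of 0.35. With library totals only 5 were higher, and without EV replicate 1 or EV replicate 2 only 1 was lower. Csf2rb, the common β chain of the receptor family to which the IL-3 and IL-5 receptors belong, rose with a log2 fold change of 1.41 and an edgeR adjusted p of 2.21e-07, and 19.6% of its 31-base words occur in another gene. Pik3cd, a catalytic subunit of PI3 kinase, rose from 7707 ± 269 to 22405 ± 930 normalized counts (SD, n = 3), with a log2 fold change of 1.54 and an edgeR adjusted p of 5.75e-08. Il3ra, the α chain of the IL-3 receptor, had 1352 ± 173 and 1188 ± 64.7 normalized counts (SD, n = 3), a log2 fold change of -0.19 and an edgeR adjusted p of 0.191. Sh2b2, an adaptor gene, fell from 571 ± 98.1 to 126 ± 14.7 (SD, n = 3), with a log2 fold change of -2.18 and an edgeR adjusted p of 8.44e-06. Kitl, which encodes stem cell factor, was too low to test, with 31, 2 and 29 counts in the sham-treated and 6, 3 and 5 in the EV-treated cultures.

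**Figure D3:**
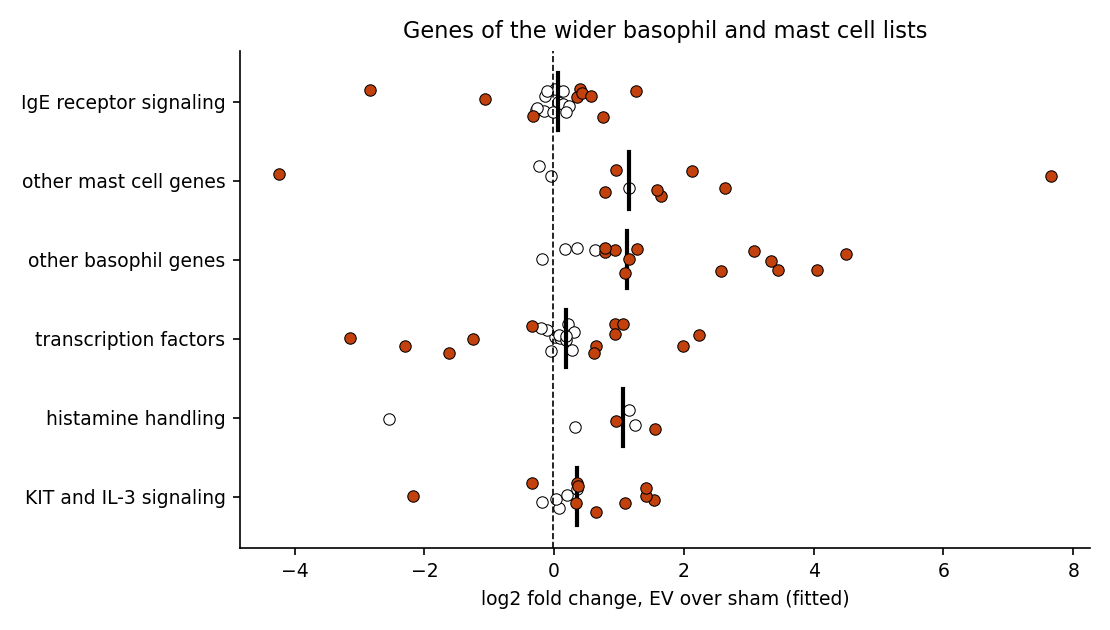
Fitted log2 fold change (horizontal axis, EV over sham) of each tested gene in the 6 lists. Filled points have an edgeR adjusted p under 0.01, and thick bars are list medians. The dashed line marks the median over all genes tested, -0.01. Points of the other mast cell and other basophil lists lie mostly to the right of 0, Hpgds is at -4.24, and the point farthest right is Gzmb, whose sham-treated cultures had no counts.

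The libraries held 23697620 to 37874426 counts, and the cultures bore the label of eosinophils in their transcripts. Summed over 10 eosinophil markers, sham-treated cultures had 30068 to 37908 CPM, counts scaled to a common library total, and EV-treated ones 42948 to 48047 CPM, with 7 of the 10 genes higher. The log2 fold change was 0.23 for Prg2 (major basic protein, edgeR adjusted p of 0.0478), 0.41 for Epx (eosinophil peroxidase, 0.00404) and 0.85 for Siglecf (5.26e-06). The 9 basophil and mast cell genes in the table summed to 216 to 277 CPM with sham and 483 to 570 CPM with EVs.

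Markers of other cells moved as well, some of them strongly. The sum of 10 macrophage markers was 1139 to 1963 CPM with sham and 264 to 383 CPM with EVs, 9 of the 10 genes were lower, and Cx3cr1 was at 0 in every EV-treated culture. Cx3cr1 thus passed the filter on low counts only through the sham-treated cultures. Apoe, the most abundant of these markers with sham, had a log2 fold change of -3.71 (edgeR adjusted p of 1.22e-05), and Csf1r, the most abundant over all 6 cultures, had the smallest fall of the 9, at -1.31 (5.67e-05). T cell markers summed to 45.8 to 91.2 CPM with sham and 13.3 to 19.6 CPM with EVs. Most of that sum was Il7r, with a log2 fold change of -2.15, and 2 of the 4 genes tested were lower. The defining gene Trac had 0 to 15.8 normalized counts in a culture. The part of these shifts in the basophil and mast cell results was not tested.

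The remaining lists changed less in sum. Neutrophil markers were at 565 to 678 CPM with sham and 587 to 702 CPM with EVs, with 2 of 9 genes higher and 3 lower, and Ngp at a log2 fold change of 0.02. Megakaryocyte markers were at 518 to 593 and 552 to 657 CPM, with 1 of 4 genes higher (Itga2b, log2 fold change 0.50) and 2 lower. Progenitor markers were at 189 to 217 and 180 to 204 CPM, with 1 of 4 genes lower and Myb at a log2 fold change of 0.05. B cell markers, at 4.93 to 5.26 and 5.53 to 5.95 CPM and led by Ms4a1 (log2 fold change 0.34), and erythroid markers, at 0.789 to 1.26 and 1.13 to 1.30 CPM and led by Klf1 (0.81), had no gene called. Of the 3 B cell genes and 1 erythroid gene tested, 0 were called with DESeq2 or limma and 0 were at an unadjusted p under 0.05.

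**Figure D4:**
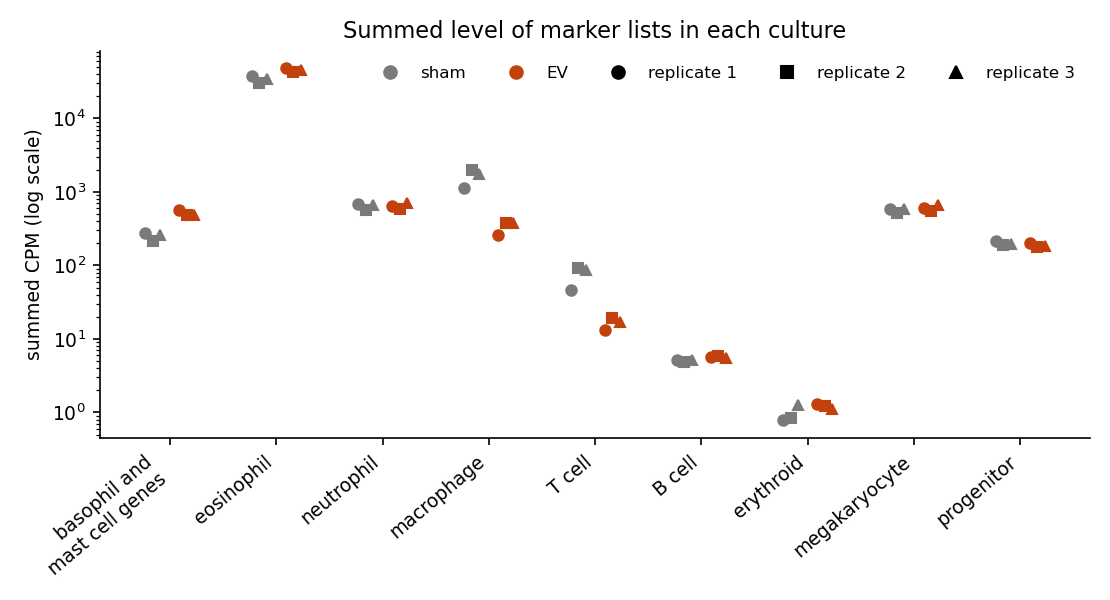
Summed CPM (vertical axis, log scale) of the basophil and mast cell genes and of 8 marker lists in each sham-treated (grey) and EV-treated (orange) culture, with the replicate number as the marker shape. Macrophage sums lie between 1139 and 1963 CPM with sham and between 264 and 383 CPM with EVs, and those of the basophil and mast cell genes between 216 and 277 CPM with sham and between 483 and 570 CPM with EVs.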

How the data were processed

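RNA-seq data of 3 sham-treated and 3 EV-treated cultures were analysed, grouped by the treatment in the sample titles. The authors checked reads with FastQC, trimmed them with Cutadapt and quantified them with Salmon. Versions, annotation and strandedness are not given in the sources used here, and the submitters' processing notes name mm10. The authors deposited estimated counts, of which 59.8% are whole, and normalized counts, a signal that equals the rounded count plus 1 divided by a size factor in 97519 of 97524 values (tolerance 0.0001). The authors' table of fold changes and p-values from their DESeq2 comparison was not used.

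Estimated counts were rounded and fitted with edgeR 4.0.16 in R 4.3.3 (TMM scaling, filterByExpr, quasi-likelihood test, treatment as the only term). The standard error is the size of the log2 fold change over the square root of F. For normalized counts in the text, each rounded count was divided by its library's TMM-scaled size, itself set relative to the geometric mean over the 6 libraries. DESeq2 1.42.0, limma 3.58.1 (on deposited normalized counts, with 1 added, as log2), other scalings, no filter, other thresholds, the replicate number as a block and leaving out each culture were the alternatives. Scripts were tested on simulated counts.

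Libraries held 23697620 to 37874426 counts, so that the spread between cultures limits all but low genes. The chi-square per gene was 13.5 to 31.8 between sham-treated and 8.37 to 9.93 between EV-treated cultures, against about 1 for counting error. The labels call the replicates biological and name no animals, so p-values measure the spread between these cultures. The 10 genes and all lists were chosen with earlier results of these data known. Named genes are the 10, the 3 largest called changes of each list and a set of genes named whatever their values. Il1rl1, Srgn, Il4, Il6, Apoe, Cx3cr1 and Trac are outside the rule, and were picked with their values known. Coordinates and exon lengths are from GENCODE vM21 (GRCm38), promoters from RefSeq.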

Additional observations from a re-analysis of the deposited data

How the results depend on the processing

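Over 12 other fits, the 8 tested genes kept their sign in all 96 values. Fcer1a passed the threshold without the filter (log2 fold change 1.57), with DESeq2 (1.56), with limma (1.56) and with the replicate block (1.60, adjusted p of 0.000735), and ranged from 1.23 to 1.85 when 1 culture was left out. Mcpt8 then ranged from 2.03 to 3.20 and missed the threshold without sham replicate 3. Kit ranged from -0.36 to -0.07 when 1 culture was left out and was -0.37 with library totals only, and 5 to 7 of the 8 genes were called higher. Over all genes, 1036 were higher with library totals only, 2478 were lower at an adjusted p under 0.05, and 419 were higher and 857 lower when at least a log2 fold change of 1 was also asked, which left 22 listed genes higher. Leaving out 1 culture gave 1071 to 1833 higher and 1018 to 1698 lower genes, the lowest without EV replicate 3, and 34 to 43 higher and 8 to 11 lower listed genes. The cause of these shifts was not tested. Deviations of same-numbered cultures correlated at 0.106, 0.0831 and 0.0417 across 13498 genes, too weakly to treat the numbers as pairs, although each culture correlated best with its own number, and the block gave 1794 higher and 1781 lower genes. Low counts limit Tpsb2, Gzmb, Il13, Grm6, Grap2, Hnmt, Cx3cr1 and Kitl.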

Other observations

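In each of the 8 tested genes sham replicate 1 was the highest of the sham-treated and EV replicate 1 the highest of the EV-treated cultures. Among all genes tested, sham replicate 1 was highest in 35.0%, EV replicate 1 in 33.3% and both in 11.8%. The same cultures had the lowest macrophage sum of their group, 1139 CPM against 1963 and 1744 CPM in sham replicates 2 and 3, and 264 CPM against 379 and 383 CPM in EV replicates 2 and 3. They also had the highest sum of eosinophil markers, 37908 and 48047 CPM. The 8 genes share these libraries, so this is 1 observation on 2 cultures, and no test was applied.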
